A study of Mus with 8 samples.

Results

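The 10 genes described here lie beside Ext1 on mouse chromosome 15: Trps1, Eif3h, Utp23, Rad21, Aard and Med30 come before it in the chromosome's gene order, and Samd12, Tnfrsf11b, Colec10 and Mal2 come after it. They were chosen by position, and a probe was taken for a gene where its transcript accession belongs to that gene in RefSeq. The array carried 14 probes for the 10 genes among its 56605 probes, and 12 of the 14, covering 8 genes, were bright enough to be tested among 31281 genes and transcripts. Aard and Colec10 were not.

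Whole subcutaneous tumours were compared between 4 hosts with Ext1 floxed on both copies and an S100a4-driven Cre (Ext1S100a4Cre host) and 4 wild-type hosts (WT host). The mice of both groups are labelled B6. Both received the same transplanted cells, MC38, a mouse colon cancer line, and tumours were taken 25 to 30 days after transplantation. No other treatment, and no age of the mice, is given in the sources used here. Total RNA of the tumour was labelled with Cy3, and each tumour was hybridised to its own 1-colour Agilent array.

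S100a4 is known to be active in fibroblasts and also in some immune cells, and the cells in which Cre acted were not measured. The labels give no change of Ext1 in the MC38 cells themselves, and their RNA was measured together with that of the host cells. The floxed allele and the Cre transgene came together in the same hosts, with no group that had only 1 of them, so their effects cannot be told apart. Nothing in the labels says whether the tumours of a host came from separate experiments, so p-values measure the spread between these tumours.

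Ext1 encodes a polymerase that lengthens the sugar chain of heparan sulfate. In humans a deletion that takes in both TRPS1 and EXT1 causes Langer-Giedion syndrome, with skeletal and hair changes, so this stretch of the genome is known for the joint loss of neighbouring genes. A gene-targeted allele is inherited together with the chromosome around it, and the question for the neighbours is whether their mRNA differed between the hosts. The labels give no such allele in the MC38 cells. An effect of the allele on its own chromosome could thus show only in RNA of host cells. The share of host cells in the tumour RNA was not measured.

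None of the 8 measured neighbours passed the test between the hosts, and neither did any other gene: 0% of the 31281 tested genes had a limma p under 0.05 after Benjamini-Hochberg adjustment. At an unadjusted p under 0.05 the count was 0 of the 8 neighbours, where 6.55% of all tested genes (2050) were past that line. Of the 8 neighbours, 5 were higher and 3 lower in the Ext1S100a4Cre host, while without scaling between arrays 1 was higher and 7 were lower. Their median difference was 0.054 log2 units, beside 0.050 for all tested genes, 58.1% of which were higher. Utp23 was the single neighbour whose hosts did not overlap, in the direction of higher in the Ext1S100a4Cre host. Over all tested genes 3.38% were separated in that direction and 4.52% in either direction, and a count of 1 among 8 genes allows no reading beyond that.

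All levels below are log2 of the probe's processed intensity minus the 75th percentile of its array, so 0 is the brightness that 3 in 4 spots stay under. They compare tumours for 1 probe and do not rank genes. The percentile itself ran from 846.9 to 1265 intensity units, with the lowest values, 854.8 and 846.9, for Ext1S100a4Cre tumours 1 and 4, and 65.7% to 71.1% of probes were well above background. The tumours carried colon epithelial genes: all 9 of that list were tested, and Krt8, a keratin of simple epithelia, averaged 4.44 in the Ext1S100a4Cre host and 4.29 in the WT host. In bulk tumour RNA, fewer cells of a type and less RNA per cell cannot be told apart.

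Ext1 itself, read by 1 probe whose position relative to the floxed part is not known from the files, had levels of -0.62, -0.27, -0.54 and -0.42 in tumours 1 to 4 of the Ext1S100a4Cre host. In the WT host it had -0.55, -0.28, 0.24 and -0.14. The ranges overlapped, with WT tumours 3 and 4 above all 4 Ext1S100a4Cre tumours. The difference was -0.28 (SE 0.18), a 95% interval of 0.614 to 1.11 in fold, with an adjusted p of 0.747 by limma and an exact two-sided permutation p of 0.229. The array slide held 2 rows with 2 tumours of each host, and within rows 1 and 2 the difference of Ext1 was -0.030 and -0.53. Without WT tumour 3 it was -0.14, and with no scaling between arrays it was -0.53 (limma adjusted p = 0.546). A probe outside the deleted part would not check the deletion.

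**Figure D1:**
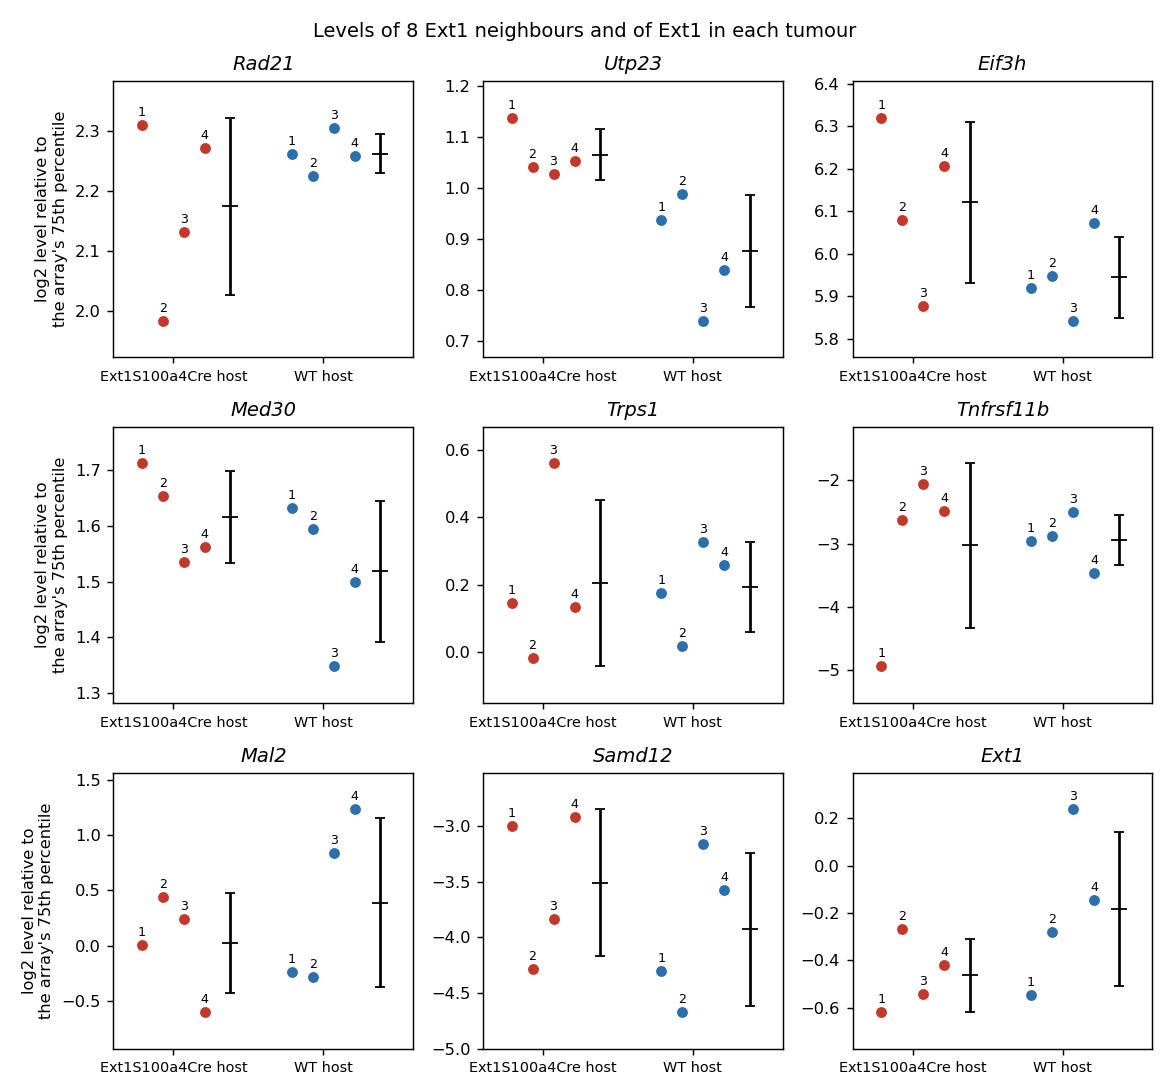
Level of each of the 8 measured neighbours and of Ext1 in every tumour, as log2 of processed intensity relative to the array's 75th percentile (y axis, a separate scale for each gene), with the Ext1S100a4Cre host in red and the WT host in blue. Numbers are the tumours, and the horizontal mark and bar beside each group are the mean and SD of 4 tumours; Utp23 is the panel in which the groups do not overlap, and Tnfrsf11b shows tumour 1 of the Ext1S100a4Cre host at -4.94.

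The nearest genes on the side before Ext1 include a run that serves the handling of chromosomes, RNA and ribosomes. Rad21 encodes the kleisin subunit that closes the cohesin ring, which holds sister chromatids together and shapes chromatin loops. Its levels were 2.31, 1.98, 2.13 and 2.27 in the Ext1S100a4Cre host, against 2.26, 2.23, 2.30 and 2.26 in the WT host. The 4 WT tumours lay within a narrow band that the Ext1S100a4Cre tumours spanned, with tumours 2 and 3 of that host below it. The means were 2.17 ± 0.15 in the Ext1S100a4Cre host and 2.26 ± 0.032 in the WT host (SD, n = 4 each), a difference of -0.088 (SE 0.12, limma adjusted p = 0.846). The difference was 0.028 without Ext1S100a4Cre tumours 2 and 3 and -0.20 without tumours 1 and 4. It was -0.025 without Ext1S100a4Cre tumour 2 alone, -0.13 without tumour 1 and -0.16 with quantile scaling. Within slide rows 1 and 2 the difference of Rad21 was -0.097 and -0.080. Ext1S100a4Cre tumours 2 and 3, its lowest, had the highest muscle genes, at 2.65 and 3.40 against the 8-tumour mean of the list, with -0.68 and -0.16 in tumours 1 and 4 and -1.88 to -0.55 in the WT host. All 6 muscle genes tested were higher in the Ext1S100a4Cre host (median 2.74, and 4 of 6 without tumours 2 and 3), with a summed level of -0.27 to 3.83 there and -1.49 to 0.28 in the WT host. The part of muscle RNA in the Rad21 values was not tested.

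Utp23 belongs to the small-subunit processome, the particle that makes the small ribosomal RNA, a role established in yeast. It read 1.14, 1.04, 1.03 and 1.05 in the Ext1S100a4Cre host, against 0.94, 0.99, 0.74 and 0.84 in the WT host. Every Ext1S100a4Cre tumour was above every WT tumour, with a gap of 0.039 log2 units between the lowest of the first and the highest of the second. The means were 1.06 ± 0.050 in the Ext1S100a4Cre host and 0.88 ± 0.11 in the WT host (SD, n = 4 each). This amounts to 0.19 log2 units (SE 0.11) or 1.14-fold, with a 95% interval of 0.953 to 1.36. The exact two-sided permutation p of 0.0286 is the smallest that 4 tumours against 4 can give, while limma's p was 0.13 (adjusted 0.747), in place 5389 of 31281. The difference was 0.13 in slide row 1 and 0.25 in slide row 2. The separation of the hosts was lost under quantile scaling (exact p 0.0571), median scaling (0.171), the 75th percentile taken over probes in place of spots (0.0571) and with no scaling (0.686). It held with normexp background correction, with an exact permutation p of 0.0286.

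Eif3h is a subunit of eIF3, the complex that brings mRNA to the small ribosomal subunit when translation begins. It had levels of 6.32, 6.08, 5.88 and 6.21 in the Ext1S100a4Cre host and of 5.92, 5.95, 5.84 and 6.07 in the WT host. Tumours 1, 2 and 4 of the Ext1S100a4Cre host were above all WT tumours and tumour 3 was among them, so the groups overlapped. The difference was 0.18 (SE 0.14, limma adjusted p = 0.758, exact permutation p = 0.171), or 1.13-fold. A second probe of Eif3h gave 0.21 (SE 0.14). Without Ext1S100a4Cre tumours 1 and 4 the difference was 0.034, and without tumours 2 and 3 it was 0.32. Without tumour 1 alone it was 0.11, and with quantile scaling 0.040. In slide rows 1 and 2 it was 0.27 and 0.085.

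Med30 encodes a subunit of Mediator, which links transcription factors to RNA polymerase II; this subunit is found in animals and not in yeast. It is the protein-coding gene next to Ext1 on that side. Its levels were 1.71, 1.65, 1.53 and 1.56 in the Ext1S100a4Cre host, against 1.63, 1.59, 1.35 and 1.50 in the WT host. WT tumours 1 and 2 lay among the Ext1S100a4Cre tumours, and WT tumours 3 and 4 lay below them. The difference was 0.097 (SE 0.12, limma adjusted p = 0.83, exact permutation p = 0.257), with 0.070 and 0.12 in slide rows 1 and 2. It was 0.040 without WT tumour 3, 0.047 with normexp, 0.046 with quantile scaling and 0.026 with array weights.

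Trps1 is a zinc-finger repressor of the GATA type with roles in cartilage and hair follicles. Its brighter probe gave 0.14, -0.016, 0.56 and 0.13 in the Ext1S100a4Cre host and 0.18, 0.017, 0.33 and 0.26 in the WT host. Apart from tumour 3 of the Ext1S100a4Cre host, which was the highest of the 8, the values of both hosts mixed. The difference was 0.011 (SE 0.16, limma adjusted p = 0.989). Without Ext1S100a4Cre tumour 3 it was -0.11 and without WT tumour 2 it was -0.049. In slide rows 1 and 2 it was -0.033 and 0.054.

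For these 5 genes the precision was fairly even. Their fitted folds ran from 0.941 to 1.14, and the 95% intervals of Rad21, Utp23, Eif3h, Med30 and Trps1 all lay within 0.778 and 1.40. Each of the 5 intervals includes equal levels, which does not show that the levels were equal. With no scaling between arrays, where the median of all tested genes was -0.199, the differences were -0.34 for Rad21, -0.061 for Utp23, -0.074 for Eif3h, -0.15 for Med30 and -0.24 for Trps1.

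The side after Ext1 held genes with wider spread between tumours. Tnfrsf11b encodes osteoprotegerin, a secreted decoy receptor that binds RANKL and restrains the formation of osteoclasts. Its levels were -4.94, -2.63, -2.06 and -2.49 in the Ext1S100a4Cre host, against -2.95, -2.88, -2.50 and -3.46 in the WT host. Tumour 1 of the Ext1S100a4Cre host was far below the other 7, while tumours 3 and 4 of that host were above all 4 WT tumours and tumour 2 was in the upper part of their range. The means were -3.03 ± 1.30 in the Ext1S100a4Cre host and -2.95 ± 0.39 in the WT host (SD, n = 4 each), a difference of -0.082 (SE 0.59, limma adjusted p = 0.976). Without tumour 1 of the Ext1S100a4Cre host the difference was 0.56 (SE 0.26), with a limma p of 0.0653 and an adjusted p of 0.983, and without tumours 1 and 4 it was 0.60. Without WT tumour 3 it was 0.068. In slide row 1 the difference was -0.87, and in slide row 2 it was 0.71.

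That tumour was also the lowest of the 8 in genes of fibroblasts and endothelial cells, and not in these alone. It was the lowest too for macrophage, T and NK cell, B cell, adipocyte, bone and cartilage, and Y-linked genes. Over the 8 tumours the Pearson r of Tnfrsf11b was 0.81 with fibroblast and 0.82 with endothelial genes. With macrophage genes it was 0.75, and with T and NK cell genes 0.73. Taken against their 8-tumour means, the 9 fibroblast genes averaged -2.89, 0.89, 0.19 and -0.55 log2 units in Ext1S100a4Cre tumours 1 to 4 and 0.17, 0.69, 1.65 and -0.15 in WT tumours 1 to 4. The 5 endothelial genes averaged -1.45 in Ext1S100a4Cre tumour 1, and between -0.24 and 0.24 in the other 3, against -0.068 to 0.89 in the WT host. All 9 fibroblast and all 5 endothelial genes were tested, and each of the 14 was lower in the Ext1S100a4Cre host (medians -1.55 and -0.48). Without Ext1S100a4Cre tumour 1 the fibroblast median was -0.22, with 2 higher and 7 lower, and the endothelial median was -0.18. Without tumours 1 and 4 the fibroblast median was 0.25, with 5 higher and 4 lower, and the endothelial median was -0.090. Without WT tumour 3 the fibroblast median was -0.87. The summed fibroblast level, the log2 of the summed intensities of the list relative to the 75th percentile, ran from 3.98 to 7.55 in the Ext1S100a4Cre host and from 6.81 to 8.92 in the WT host. The summed endothelial level ran from 0.71 to 2.39 in the Ext1S100a4Cre host and from 1.99 to 2.47 in the WT host. The part of these cells in the Tnfrsf11b values was not tested.

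Colec10 encodes a collectin, a soluble lectin of innate immunity. On 0 of the 8 arrays was its single probe well above background (1.98 to 3.47 intensity units), so no difference is given. Mal2, the last gene of the set, encodes a membrane protein needed for transcytosis in polarised epithelial cells. It had 0.0033, 0.44, 0.24 and -0.61 in the Ext1S100a4Cre host and -0.24, -0.29, 0.84 and 1.24 in the WT host. WT tumours 3 and 4 were the highest, and the other WT tumours lay between tumour 4 and the rest of the Ext1S100a4Cre host. The difference was -0.37 (SE 0.40, limma adjusted p = 0.81, exact permutation p = 0.429). Within the slide rows of the array it was 0.49 in row 1 and -1.22 in row 2. It was -0.084 without WT tumour 4, -0.16 without Ext1S100a4Cre tumour 4, -0.22 without WT tumour 3, -0.58 without WT tumour 1 and -0.59 without WT tumour 2.

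Samd12, the gene directly after Ext1, encodes a protein with a SAM domain, and in humans an intronic repeat expansion in it causes a familial myoclonic epilepsy. The levels on its brightest probe were -3.00, -4.28, -3.84 and -2.92 in the Ext1S100a4Cre host, against -4.30, -4.67, -3.16 and -3.58 in the WT host. Tumours 1 and 4 of the Ext1S100a4Cre host were the highest of the 8, while tumours 2 and 3 lay within the WT range. On another Samd12 probe, also well above background on all arrays, WT tumour 3 was the highest at -3.38, with Ext1S100a4Cre tumours 1 and 4 at -3.39 each. The difference was 0.42 (SE 0.42, 95% interval -0.55 to 1.39, limma adjusted p = 0.797, exact permutation p = 0.4). Without tumours 1 and 4 of the Ext1S100a4Cre host it was -0.13, and without tumours 2 and 3 it was 0.97 (limma adjusted p = 0.309). When 1 tumour was left out it ran from 0.17 without WT tumour 2 to 0.68 without Ext1S100a4Cre tumour 2, and it was 0.25 and 0.22 without Ext1S100a4Cre tumours 1 and 4 in turn. Within slide row 1 it was 0.85 and within slide row 2 it was -0.0082.

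Tumours 1 and 4 of the Ext1S100a4Cre host also stood apart in the 4 Y-linked genes listed. Each of the 4 was well above background on 6 of the 8 arrays, and in these tumours each lay under the dimmest signal so counted on the array (-6.45 and -6.36). Their averages there, -3.43 and -3.29 relative to the 8-tumour means, are therefore background readings. The averages were 1.31 and 1.09 in tumours 2 and 3 of that host, against 0.42 to 2.44 in the WT host. Y-linked readings were thus not balanced between the hosts, being at background in no WT tumour. The comparison took no account of the sex of the mice, and its part in the differences between the hosts was not tested. The summed level reached -0.81 in the Ext1S100a4Cre host, with a background reading of -6.57 at its low end, and ran from -1.84 to 0.053 in the WT host. Over the 8 tumours the Pearson r with the Y-linked genes was -0.58 for Samd12, -0.67 for Utp23 and -0.88 for Eif3h, so the split was not particular to Samd12. Of the marker lists, Samd12 had its strongest r, -0.86, with the bone and cartilage genes. The part of the Y-linked split in the Samd12 values was not tested. Aard, the remaining neighbour, had 1 probe, well above background on 0 of the 8 arrays (1.97 to 2.52 intensity units).

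**Figure D2:**
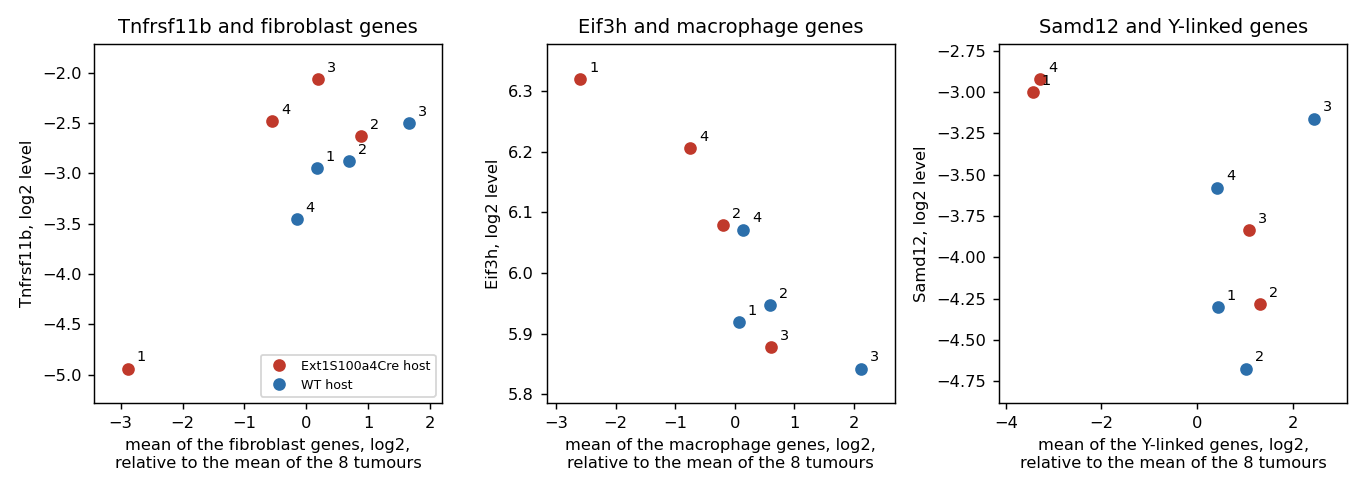
Level of a neighbour (y axis, log2 relative to the array's 75th percentile) against the mean of a marker list (x axis, log2 relative to the mean of the 8 tumours), each point a numbered tumour of the Ext1S100a4Cre host (red) or the WT host (blue). Tumour 1 of the Ext1S100a4Cre host is at the low end of the fibroblast and macrophage lists, where Tnfrsf11b is lowest (-4.94) and Eif3h highest (6.32), and tumours 1 and 4 share Y-linked readings at background and the highest Samd12 on the probe shown.

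Eif3h ran against the macrophage genes (Pearson r = -0.91 over the 8 tumours), and nearly as much against other lists. Its r was -0.89 for T and NK cell, -0.88 for Y-linked, -0.86 for endothelial, -0.83 for fibroblast and -0.78 for bone and cartilage genes. Med30 and Utp23 ran against the macrophage genes too (r = -0.82 and -0.81), and likewise against other lists. For Med30 the r was -0.81 with T and NK cell genes and -0.78 with B cell genes. Utp23 had its strongest r, -0.89, with B cell genes. With the erythrocyte genes the r was positive, 0.68 for Med30 and 0.71 for Utp23. The highest Eif3h was in tumour 1 of the Ext1S100a4Cre host, which had the lowest average of the 8 macrophage genes (-2.59). The lowest Eif3h was in WT tumour 3, which had the highest average (2.12). The other macrophage averages were -0.19, 0.61 and -0.75 in tumours 2 to 4 of the Ext1S100a4Cre host and 0.067, 0.60 and 0.14 in WT tumours 1, 2 and 4. Of the 8 macrophage genes, 7 were lower in the Ext1S100a4Cre host, with a list median of -1.51 (-0.34 without Ext1S100a4Cre tumours 1 and 4), and their summed level ran from 4.25 to 5.61 there and from 5.20 to 6.95 in the WT host. The part of these cells in the Eif3h difference was not tested.

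Where a gene had several probes, they were set beside each other as a check on the reading. The 3 Samd12 probes followed the same order of tumours closely, with Pearson r between 0.920 and 0.964 over the 8 tumours, and gave differences of 0.42 (SE 0.42), 0.34 (SE 0.44) and 0.31 (SE 0.30). The dimmest of them was well above background on 3 of the 4 WT arrays. The 2 Eif3h probes had an r of 0.978. The 2 Trps1 probes did not follow each other as well, with an r of 0.355. Tumour 3 of the Ext1S100a4Cre host, the highest on the brighter probe (0.56), had -0.075 on the other, whose difference was 0.035 (SE 0.14). These r values describe 8 tumours of 2 hosts that share each array's scaling, and carry no p.

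**Figure D3:**
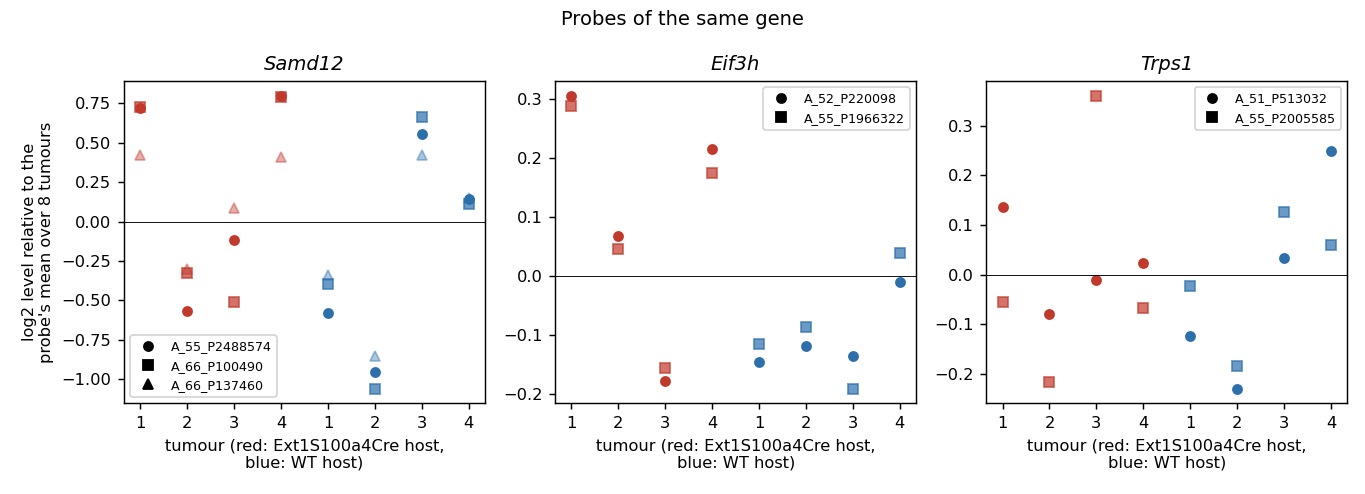
Level of each probe of Samd12, Eif3h and Trps1 in every tumour (x axis, tumours 1 to 4 of the Ext1S100a4Cre host in red and then of the WT host in blue), as log2 relative to that probe's mean over the 8 tumours (y axis). Marker shapes are the probes; those of Samd12 and Eif3h lie close together, while those of Trps1 part most at tumour 3 of the Ext1S100a4Cre host.

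Higher and lower genes were mixed around Ext1. Among the 50 protein-coding genes nearest to Ext1 by order, 25 on either side, 35 were tested: 19 were higher and 16 lower in the Ext1S100a4Cre host, with a median difference of 0.039. Without the neighbours themselves the window had 27 tested genes, 14 higher and 13 lower, with the same median. A window of 10 genes on either side had 7 higher and 7 lower of 14 (median -0.036), and one of 50 on either side had 36 higher and 39 lower of 75 (median -0.0048). The side before Ext1 had 10 higher and 4 lower (median 0.10) and the side after it 9 higher and 12 lower (median -0.057).

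The remainder of chromosome 15 had a median difference of 0.059 over 595 tested protein-coding genes. By its median, chromosome 15 was in place 6 of 20 chromosomes. In the window of 25, 1 of 35 genes had an unadjusted p under 0.05, where 6.55% of all tested genes did. This was Zfpm2, a zinc-finger cofactor of GATA factors that lies 24 protein-coding genes before Ext1. It had -7.90, -4.94, -6.18 and -5.84 in the Ext1S100a4Cre host and -4.42, -4.20, -3.25 and -5.64 in the WT host. WT tumour 4 overlapped the Ext1S100a4Cre values, the lowest of which lies under the dimmest signal counted as well above background on any array (-7.05). The difference of Zfpm2 was -1.84 (SE 0.69, adjusted p = 0.747 by limma).

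**Figure D4:**
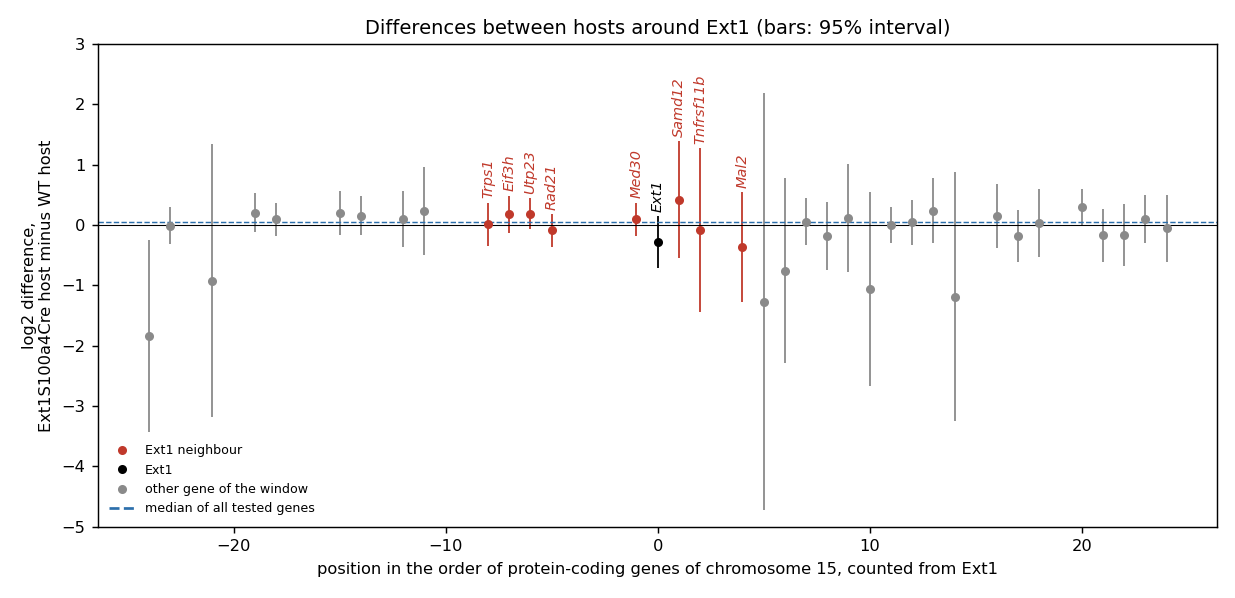
Difference between the hosts (y axis, log2 units, Ext1S100a4Cre host minus WT host) for each tested protein-coding gene, placed by its position in the gene order of chromosome 15 counted from Ext1 (x axis). Red points are the neighbours, the black point is Ext1 and grey points are other genes, with bars for the 95% interval of limma; the dashed line at 0.050 is the median of all tested genes, and every neighbour's interval includes it.

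From Trps1 to Mal2, both and Ext1 included, the RefSeq table lists 13 protein-coding genes, of which 12 had a probe and 9 were tested. Slc30a8, a zinc transporter of pancreatic beta cells that lies between Aard and Med30, had 1 probe, well above background on 0 of the 8 arrays. The same stretch holds 11 long non-coding RNAs, of which 4 had a probe and 0 were bright enough to be tested.

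Genes that work with the neighbours' products were listed by complex, pathway or family, and 0 of them passed the adjusted threshold. Over all tested genes 0% passed it and 6.55% had an unadjusted p under 0.05, the share beside which the counts below stand. The cohesin list, partners of Rad21, had 11 higher and 6 lower of 17 tested (median 0.086, and -0.16 without scaling), while Rad21 was at -0.088. At an unadjusted p under 0.05 was 1 of the 17, Pttg1, the securin that holds separase in check, at 0.55 (SE 0.16). The cohesin acetyltransferase Esco1 was at 0.23 and the ring subunit Smc3 at 0.25.

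Of the partners of Med30, 28 Mediator subunits were tested. In the Ext1S100a4Cre host 24 of them were higher and 4 lower, with a median of 0.14 (-0.11 without scaling). At an unadjusted p under 0.05 were 2 of the 28, Med27 at 0.33 (SE 0.13) and Med22 at 0.60, and Med8 was at 0.26. All 12 of the other eIF3 subunits tested were higher in the Ext1S100a4Cre host, with a median of 0.14 and 0 at an unadjusted p under 0.05, while 11 of the 12 were lower without scaling (median -0.11). Eif3c led them at 0.29 (SE 0.13), with Eif3f at 0.23 and Eif3g at 0.21.

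Among the small-subunit processome genes, partners of Utp23, 23 of 25 were higher (median 0.17, and -0.084 without scaling), and 2 had an unadjusted p under 0.05: Rrp9, a protein of the U3 particle, at 0.33 (SE 0.12) and the GTPase Bms1 at 0.42. Fcf1, a nuclease-like partner, was at 0.25. The counts of higher genes stand beside 58.1% higher over all tested genes, or 20.8% without scaling. At an unadjusted p under 0.05 were 5.88% of the cohesin, 7.14% of the Mediator, 0% of the eIF3 and 8% of the processome genes. These shares lie near or under the 6.55% of all tested genes and allow no reading beyond that.

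With quantile scaling the median was 0.035 for cohesin, 0.054 for Mediator, 0.037 for eIF3 and 0.077 for the processome, beside 0.027 for all tested genes. Higher were then 10 of 17, 18 of 28, 10 of 12 and 19 of 25 genes in that order, beside 54.6% of all tested genes. Without tumours 1 and 4 of the Ext1S100a4Cre host the median was -0.087 for cohesin, -0.068 for Mediator, 0.033 for eIF3 and 0.018 for the processome. The median of the 12 eIF3 genes in each tumour, relative to each gene's mean, was 0.29, 0.0059, -0.097 and 0.18 in the Ext1S100a4Cre host and -0.0048, -0.047, -0.27 and -0.014 in the WT host. Tumours 1 and 4 were thus the highest of the 8 and WT tumour 3 the lowest, and these tumours were also the lowest and the highest in fibroblast and macrophage genes. The part of those cells in these lists was not tested.

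**Figure D5:**
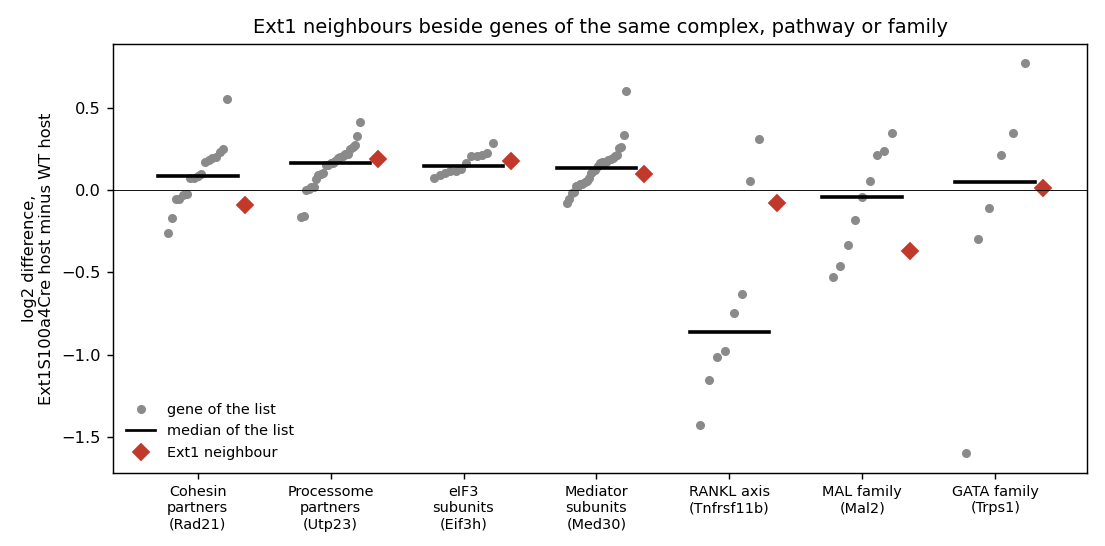
Difference between the hosts (y axis, log2 units, Ext1S100a4Cre host minus WT host) of each gene in 7 lists (grey points), the median of the list (black line) and the neighbour it belongs to (red diamond). The eIF3 points all lie above 0 (11 of 12 are below it without scaling, and 2 with quantile scaling) with Eif3h at 0.18 among them. Rad21 at -0.088, Mal2 at -0.37, Med30 at 0.097 and Trps1 at 0.011 lie below the medians of their lists. Utp23, Eif3h and Tnfrsf11b lie above theirs.

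For Tnfrsf11b, the list held the RANKL ligand, its receptor and genes of the osteoclast programme. Of 8 tested, 2 were higher and 6 lower in the Ext1S100a4Cre host (median -0.86), and 0 had an unadjusted p under 0.05. Nfatc1, the transcription factor of osteoclast formation, was at -1.43, Tnfrsf11a, the receptor RANK, at -0.75, and Acp5, tartrate-resistant acid phosphatase, at -0.63. The median was -0.39 without tumour 1 of the Ext1S100a4Cre host, -0.34 without WT tumour 3 and -0.29 without Ext1S100a4Cre tumours 1 and 4. By tumour, the list stood at -1.64, -0.31, 0.24 and -0.23 in the Ext1S100a4Cre host and at -0.11, 0.21, 1.70 and -0.0031 in the WT host, so its lowest and highest tumours were those of the macrophage genes given above. The ligand Tnfsf11 was well above background on 5 of the 8 arrays. The part of macrophages in this list was not tested.

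The collectin and lectin pathway list of Colec10 had 5 genes tested of 9, all 5 lower (median -0.54), led by the ficolin Fcna at -2.10, with the surfactant protein Sftpd at -0.65 and the mannose-binding lectin Mbl2 at -0.54. Each of these 3 was well above background on 7 of 8 arrays, Fcna failing in Ext1S100a4Cre tumour 1 and the other 2 in tumour 4, so the sizes include background readings. With normexp background correction its median was 0.0050 and without tumours 1 and 4 of the Ext1S100a4Cre host it was 0.44. The MAL family, relatives of Mal2, had 4 higher and 5 lower of 9 (median -0.045), with Myadm at -0.53 (SE 0.20) the 1 gene at an unadjusted p under 0.05, beside Cmtm3 at -0.46 and Mall at -0.33. For Trps1, the 6 GATA factors had 3 higher and 3 lower (median 0.051, and -0.198 without scaling), with Gata3, a factor of T cells and innate lymphocytes, at -1.60 (SE 0.68) the 1 at an unadjusted p under 0.05. Gata5 was at 0.21 and Gata4 at 0.77.

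Gata3 had -4.76, -3.38, -1.73 and -2.78 in the Ext1S100a4Cre host and -2.10, -1.90, -0.20 and -2.06 in the WT host. The 7 genes of T and NK cells, all tested and all lower in the Ext1S100a4Cre host (median -1.09, and -0.24 with 2 of 7 higher without tumours 1 and 4), averaged -1.75, -0.62, 1.01 and -0.50 there and -0.29, 0.72, 1.63 and -0.19 in the WT host. Their summed level ran from 1.08 to 2.86 in the Ext1S100a4Cre host and from 1.74 to 3.42 in the WT host. Ext1S100a4Cre tumour 1 was the lowest and WT tumour 3 the highest for both. The part of these cells in the Gata3 difference was not tested.

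The neighbours' own patterns over the 8 tumours were mostly unlike each other. Of the 28 pairs of tested neighbours, 11 had a positive Pearson r, the median r was -0.18, and the range ran from -0.70 for Eif3h and Tnfrsf11b to 0.86 for Med30 and Utp23. With Ext1 itself the r was -0.84 for Utp23, -0.82 for Med30, -0.44 for Eif3h and 0.63 for Mal2. For the remaining neighbours it lay between 0.027 (Trps1) and 0.31 (Tnfrsf11b), and these values carry no p. Among 14337 named genes well above background on all arrays, Utp23 was most like Ighmbp2 (r = 0.988) and Hdhd5 (0.986), and Eif3h was most like Sco2 (0.989), also on chromosome 15, and Gpatch11 (0.987). Med30 was most like Cln6 (0.982) and Phf14 (0.975), and Rad21 like Ghitm (0.975) and Wdr1 (0.970).

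Samd12 was most like Rc3h1 (r = 0.976) and Sod2 (0.961). For Trps1 the nearest were Olfr339 (0.971) and Pabpc4l (0.935), for Tnfrsf11b Ccm2l (0.964) and Cdkn2a (0.960), and for Mal2 Smpd2 (0.995) and Clmn (0.987). Ext1 was most like Gpr137b (0.980) and its pseudogene Gpr137b-ps (0.975). Apart from Sco2, the genes most like a neighbour lay on other chromosomes. Each r is the highest or the next found in a search of 14337 genes over 8 tumours that share their scaling, and carries no p.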

How the data were processed

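The deposited spot intensities are linear and, per the file headers, had background and spatial trends removed by Agilent Feature Extraction 10.7.3.1 (version 9.1 in the submitters' processing notes). The deposited series matrix holds the same intensities, unscaled. From the scanner files, control spots (3671 of 62976) were left out and log2 was taken. Spots with an outlier flag were left out, and the other spots of a probe were averaged. The array's 75th percentile was then subtracted, taken over all its non-control spots with the flagged ones included. A probe was kept where at least 4 of 8 arrays had it well above background, and a gene was represented by its brightest kept probe. Names, chromosome and gene order came from a RefSeq table of assembly GRCm38.p6. The headers name build mm9, so no coordinates are printed. The number of arrays limits the precision.

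The comparison of hosts used limma 3.58.1 (R 4.3.3) without covariates, two-sided, with Benjamini-Hochberg adjustment over all 31281 genes. Single genes also had an exact permutation test, two-sided, over the 70 assignments of tumours. The fit was tested on simulated data. The alternatives were other background corrections, scalings, filters, probe summaries, blocks and variances, array weights, window sizes and left-out tumours. The percentile over probes, the gap of Utp23 under each scaling and the list values under each alternative were added after seeing the data.

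Members and lists were chosen with earlier results of these data known. Named genes are the neighbours and Ext1, genes of the window of 25 with an unadjusted p under 0.05, up to 3 genes of smallest p per list and the 2 most similar genes per neighbour. Chosen after their values were seen were Slc30a8 and the number of long non-coding RNAs. The pairs of a gene and a marker list set beside each other were not planned either. They are a few of the many pairs that could be formed. Sequences were not used here.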

Additional observations from a re-analysis of the deposited data

How the results depend on the processing

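No neighbour passed the adjusted threshold under any of the 22 alternative settings, including the slide row as a block. The count of genes past it over the whole table, 0 as reported, was 1 with normexp and 1 with array weights, 11 without Ext1S100a4Cre tumours 1 and 4, and 0 to 2 when 1 tumour was left out, the 2 coming without WT tumour 3. At an unadjusted p under 0.05 the count of neighbours was 1 with the unscaled series matrix (Rad21) and 1 with array weights (Samd12). The median of the neighbours was -0.196 in the unscaled series matrix, beside -0.199 for all genes, and 0.025 to 0.087 when 1 tumour was left out. The median of the window of 25 was -0.211 in the unscaled series matrix, and -0.036 for a window of 10. All genes had a median of 0.102 with normexp. The share of genes higher in the Ext1S100a4Cre host was 58.1% as reported, 70.4% with normexp and 20.8% unscaled.

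In the unscaled series matrix, where the median of all tested genes was -0.199, the sign turned for Med30 (-0.15), Utp23 (-0.061), Eif3h (-0.074) and Trps1 (-0.24). Scaling subtracts each array's percentile from all its probes, so leaving it out moved these differences by the same amount. The gap of Utp23 turned to an overlap of -0.0040 under quantile scaling, -0.158 under median scaling, -0.514 unscaled and -0.0025 with the percentile over probes. Tnfrsf11b ran from -0.40 to 0.56 when 1 tumour was left out, and was 0.069 with normexp, 0.56 without Ext1S100a4Cre tumour 1, 0.068 without WT tumour 3 and 0.60 without Ext1S100a4Cre tumours 1 and 4. Trps1 ran from -0.11 to 0.085, and was -0.11 without Ext1S100a4Cre tumour 3, -0.049 without WT tumour 2 and -0.056 without Ext1S100a4Cre tumours 2 and 3. Samd12 was -0.13 without Ext1S100a4Cre tumours 1 and 4, and Rad21 was 0.028 without tumours 2 and 3. The cause of the other changes was not tested.

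Tumours with the same number did not all deviate together (correlations 0.49, -0.16, 0.59 and -0.25 for numbers 1 to 4), so the numbers are not taken to pair them. With the replicate number as a block, 0 genes were past the adjusted threshold and 3241 had an unadjusted p under 0.05, beside 2050 without it. Utp23 then had a difference of 0.19 (SE 0.13, limma adjusted p = 0.646). Without Ext1S100a4Cre tumours 2 and 3 the count at an unadjusted p under 0.05 was 5361. Brightness over background limits Aard and Colec10, which have no difference here.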
